A study of Mus musculus with 6 samples.

Results

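The MAP kinase cascades and the dual-specificity phosphatases that switch them off were examined in mouse liver after a year of exposure to the cyanobacterial toxin microcystin-LR (MC-LR). Members were all genes on the array whose names begin with Dusp, Mapk, Map2k, Map3k or Map4k followed by a digit, which gave 69 of 27376 gene names. They were read by 137 probes, and 63 of the 69 lay high enough above background to be tested among 18903 tested genes. Dusp5 was not on the array under that name and is not analysed here.

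In a MAP kinase cascade a MAP3K phosphorylates a MAP2K, which phosphorylates a MAP kinase on a threonine and a tyrosine. The ERK branch answers mainly to growth factors, and the p38 and JNK branches to stress and inflammatory signals. Dual-specificity phosphatases remove both phosphates and close the loop, and many of them are themselves induced by the kinases they inactivate. MC-LR inhibits the serine/threonine phosphatases PP1 and PP2A, which also act on MAP kinases and their activators. The arrays measured RNA and give no information on phosphorylation.

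The livers came from 6 male BALB/c mice, 3 given normal sterile water and 3 given water with MC-LR at 100 µg/L for 12 months from an age of 6 weeks. Each liver was from a separate mouse and took 1 single-colour Agilent array. The p-values thus refer to the spread between mice, which among the controls also holds any effect of slide and scan. The number of arrays limits the precision. The levels given are quantile-normalized log2 processed signals, and a difference is the MC-LR mean minus the control mean on that scale. In whole liver, fewer cells of a type and less RNA per cell cannot be told apart.

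Between 64.9% and 73.7% of spots per array lay well above background, and 0 were saturated. Slide 1 carried controls 1 and 2, and slide 2 carried control 3 with all MC-LR livers, so a comparison within a slide rests on control 3 as the single control. The scan entry of the file headers differed between the slides and was the same within each. Control 3 also stood apart on the first principal component (36.5% of the variance), at 40.3 against -31.0 and -37.0 for the other controls. The MC-LR livers, on slide 2 like control 3, lay between them at 6.9, 25.2 and -4.4. Spots well above background made up 68.3% and 64.9% on the arrays of slide 1, and 71.1% to 73.7% on those of slide 2. The parts of slide and of that mouse cannot be told apart here. All 11 hepatocyte markers tested were well above background on all 6 arrays, with a mean log2 signal of 15.8 to 15.9 per array. Of 17 circadian clock genes 10 were higher and 2 lower in MC-LR livers at an unadjusted p under 0.05, with a median difference of 1.07, against 7.51% higher and 5.37% lower among all genes. In the fit with slide as a block these counts were 5 higher and 0 lower with a median of 0.82 (7.97% and 8.12% of all genes), and 0 clock genes passed the adjusted threshold in limma. Among the 10 higher without the block, Bhlhe41 and Per3 were bright enough for testing in the MC-LR group only. The selection of tested genes thus favoured the direction of both. Hlf, a D-box factor, was at 0.99 and Cry2 at 1.21. Sampling time is not given in the sources used here, and its part in the results was not tested.

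The 4 members whose groups lay farthest apart by the test were the kinase genes Map2k3, Map2k6 and Mapk6 and the phosphatase gene Dusp7. The stretches upstream of their start sites are shown first because these members had the smallest p. The motifs searched were the AP-1 site and cAMP response element of factors downstream of the cascades, the E-box and D-box of clock factors, and the GC box, a general promoter element. They were taken from RefSeq (GRCm38.p6), which held windows of 250 bases before to 50 after the start for 52 of the 69 members (66 windows). Each stretch is 120 bases of such a window, printed 5′ to 3′ on the gene's strand with matches on either strand in capitals. Those of Map2k6 run from -250 to -131 relative to the start, chosen because its AP-1 site and D-box lie there, and the others cover the last 120 bases before the start. The Map2k3 stretch is chr11:60931934-60932053 on the plus strand and holds 2 of the 4 GC boxes (GGGCGG) of its window. Map2k6 has 2 start sites: the stretch before the first is chr11:110398852-110398971 (plus strand) with an AP-1 site (TGANTCA), and that before the second is chr11:110478265-110478384 (plus strand) with a D-box (TTATGTAA) and a GC box. The Dusp7 stretch is chr9:106368512-106368631 (plus strand), with none of the 5 motifs, while the window has a GC box 14 bases after the start. Start sites are numbered by rising coordinate, which for Mapk6, on the minus strand, runs against the direction of the gene. The Mapk6 stretch, before start site 2, is chr9:75410017-75410136 (minus strand), with 1 of the 3 GC boxes of that window. The window of start site 1 has 3 more.
Map2k3: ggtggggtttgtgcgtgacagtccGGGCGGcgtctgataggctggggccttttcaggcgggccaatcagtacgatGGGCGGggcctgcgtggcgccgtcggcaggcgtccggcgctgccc
Map2k6, start site 1: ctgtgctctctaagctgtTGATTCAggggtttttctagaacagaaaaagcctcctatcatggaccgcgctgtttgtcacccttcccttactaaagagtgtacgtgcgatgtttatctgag
Map2k6, start site 2: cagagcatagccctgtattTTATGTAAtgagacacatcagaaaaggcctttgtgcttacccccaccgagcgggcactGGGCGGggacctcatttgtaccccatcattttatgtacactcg
Dusp7: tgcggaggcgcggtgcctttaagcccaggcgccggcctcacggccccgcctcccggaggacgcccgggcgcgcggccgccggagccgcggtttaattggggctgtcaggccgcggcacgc
Mapk6, start site 2: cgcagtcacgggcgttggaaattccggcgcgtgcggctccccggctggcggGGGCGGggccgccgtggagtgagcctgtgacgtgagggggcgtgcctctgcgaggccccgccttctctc

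Over all members, the GC box was present in 63.6% of windows (39 genes), against 35.7% of the 32851 windows of all genes. The E-box (CACGTG) was in 7.58% of member windows and 7.15% of all windows, and its member genes were Dusp1, Dusp2, Map3k12, Map4k1 and Mapk12. The cAMP response element (TGACGTCA) was in 4.55% against 1.79%, in Dusp1, Dusp8 and Mapk10. The AP-1 site was in 6.06% against 7.81%, in Dusp13, Map2k6, Map2k7 and Map3k10. The D-box was in 1.52% against 0.938%, in Map2k6 alone among the members with a window. No match overlapped another in the stretches shown, and a match describes these letters only.

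Across the 63 tested members, 0 passed an adjusted p of 0.05 in limma (Benjamini-Hochberg over all 18903 genes), where 3 genes in all passed (0.0159%). At an unadjusted p under 0.05, 4 members (6.35%) were higher and 0 lower in MC-LR livers, against 12.9% of all genes tested (7.51% higher and 5.37% lower). The 3 arrays of each group did not overlap in 9 members (14.3%), 7 higher and 2 lower, against 20.5% of all genes (11.3% higher and 9.23% lower). The 7 include Mapk4, which passed the filter on dim probes through its MC-LR arrays alone, so its direction was favoured by the filter. Both shares lay below those of all genes. The counts by role given below stand beside the same 12.9% of all genes, and each role holds too few genes for a comparison with it. The median difference was -0.00 over the members and -0.01 over all genes, and the median size of a difference was 0.138 against 0.167. In 58 of the 63 members the difference was under 0.5. The 95% interval lay within a 2-fold change either way for 58 members and within a 1.5-fold change for 39.

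**Figure D1:**
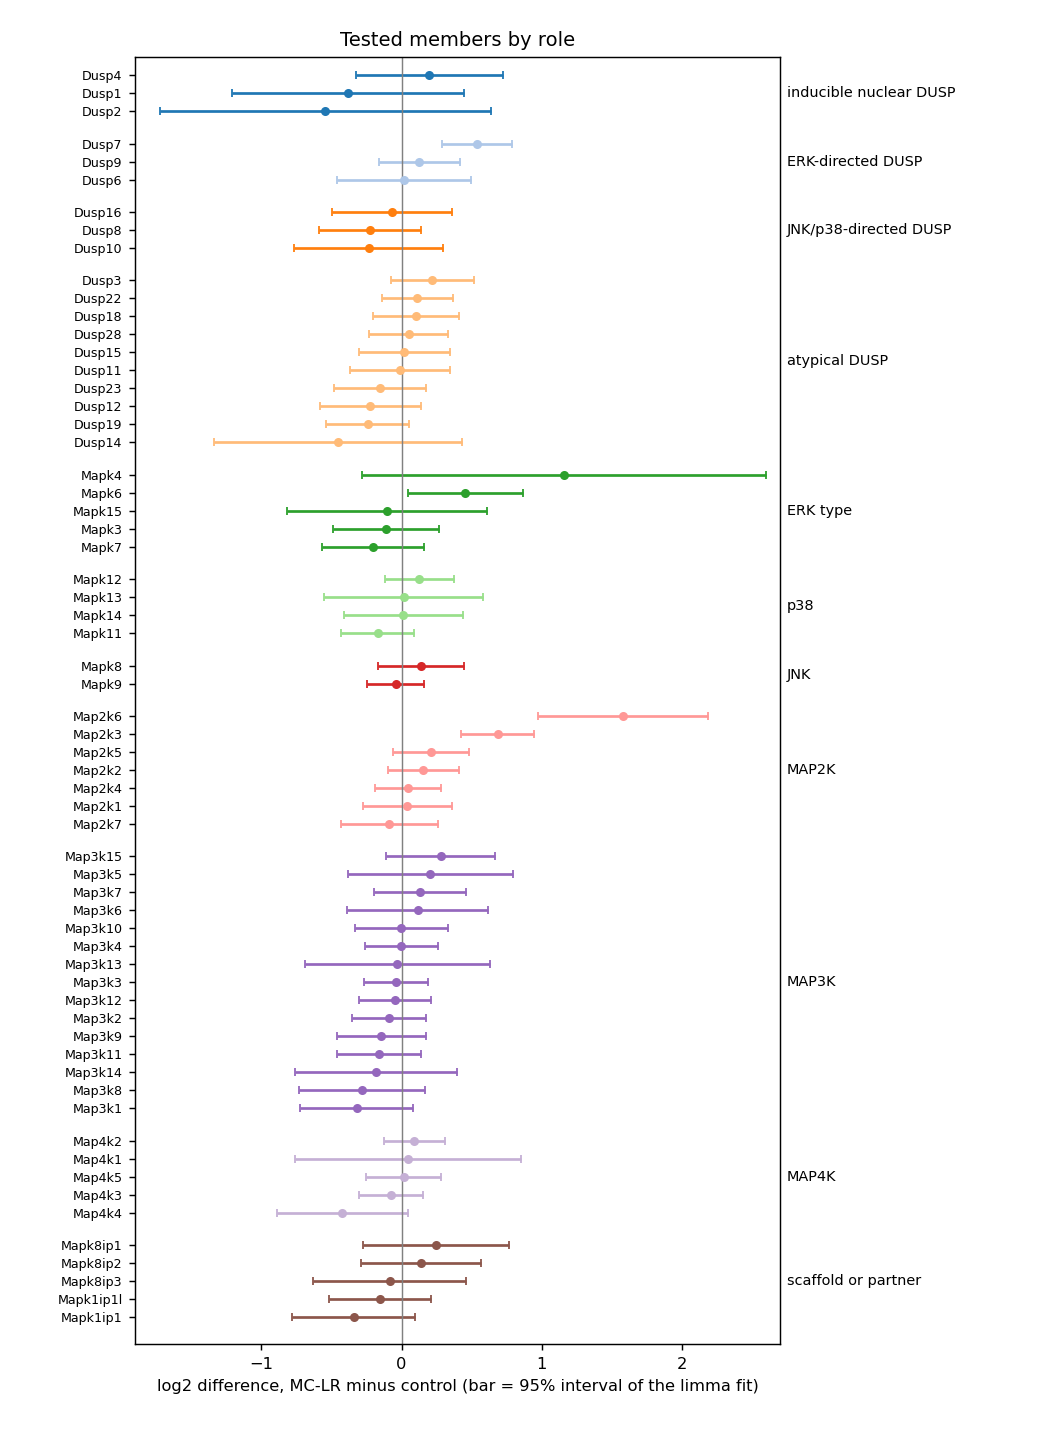
Difference between MC-LR and control livers (log2, horizontal axis) for the tested members reported here, grouped by role, with 3 livers per group. Points are limma estimates and bars their 95% intervals. The intervals of Map2k6, Map2k3, Dusp7 and Mapk6 lie above 0, and those of all other members shown include 0.

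Among the MAP2Ks, the dual-specificity kinases that phosphorylate the MAP kinases, both p38-directed members had higher levels in MC-LR livers. Map2k3, which encodes the p38 activator MKK3, is read by 1 probe at mm9 chr11:60765712-60765771. Its log2 signal was 9.39, 9.40 and 9.37 in the controls and 10.20, 9.92 and 10.09 in the MC-LR livers. The controls lay within 0.032 of each other, and every MC-LR liver lay above all of them. The difference was 0.69 (SE 0.11, 95% interval 0.43 to 0.94, a 1.61-fold ratio), with an unadjusted p of 0.0006 and an adjusted p of 0.166 in limma (0.0841 to 0.616 over the alternatives). Map2k3 thus missed the adjusted threshold under every alternative run. With slide as a block it was 0.70, on control 3 against the MC-LR livers, and over the 18 alternatives it ranged from 0.58 to 0.76.

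Map2k6, which encodes the other dedicated p38 activator MKK6, was read by 3 probes. The probe used, at mm9 chr11:110374803-110374862, gave 7.996, 8.24 and 8.86 in the controls and 10.21, 9.83 and 9.78 in the MC-LR livers. Control 3 was the highest control, and the groups did not overlap. The difference was 1.58 (SE 0.25, 95% interval 0.97 to 2.19, a 2.99-fold ratio), with an unadjusted p of 0.0007 and an adjusted p of 0.170 in limma (0.0473 to 0.616 over the alternatives). With slide as a block the difference was 1.09, and without control 3 it was 1.83 with an adjusted p of 0.0473. That was the only call of a member in any alternative, and with control 3 left out each slide held 1 group, so slide and treatment cannot be told apart there.

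The other probes of Map2k6 were dimmer and had the same direction. One gave 0.93, 0.94 and 3.01 in the controls and 4.36, 3.40 and 3.99 in the MC-LR livers, and was well above background on 1 control array and all MC-LR arrays, so that its direction was favoured by the filter. The third gave 3.69, 4.22 and 3.59 against 5.20, 4.36 and 4.73, a difference of 0.93. On this probe and the one used the MC-LR livers lay above all controls.

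The other MAP2Ks did not show a difference of this size. Map2k1, which encodes the ERK activator MEK1, was at 10.60, 10.57 and 10.73 in the controls and 10.47, 10.68 and 10.87 in the MC-LR livers, a difference of 0.04 (95% interval -0.28 to 0.36). Map2k2, encoding MEK2 and among the 4 brightest members, was at 12.37, 12.50 and 12.32 against 12.55, 12.45 and 12.65, a difference of 0.15 (-0.10 to 0.41). Map2k4, which encodes the JNK activator MKK4, was at 10.71, 10.51 and 10.56 against 10.62, 10.67 and 10.63, a difference of 0.04 (-0.19 to 0.28). In all 3 the groups overlapped. The sign for Map2k1 turned in 3 of the 18 alternatives. Of the remaining MAP2Ks, named after their values were seen, Map2k5, the activator of ERK5, was at 7.71, 7.84 and 7.59 against 8.03, 7.84 and 7.90, a difference of 0.21 (unadjusted p = 0.110). The other passing probe of Map2k5 gave 0.02. Map2k7, which activates JNK, had a difference of -0.09, while its other passing probes were at 0.17 and 0.08. Of the 7 MAP2Ks 6 had a difference above 0, as 48.6% of all genes did, and 2 were higher at an unadjusted p under 0.05, as 7.51% of all genes were.

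**Figure D2:**
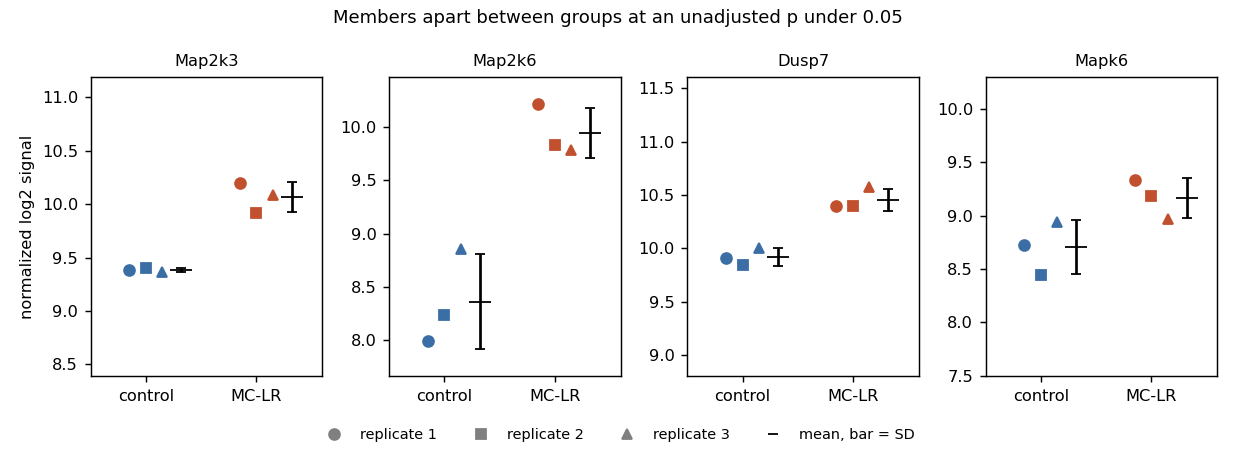
Normalized log2 signal (vertical axis) of Map2k3, Map2k6, Dusp7 and Mapk6 in each of 3 control and 3 MC-LR livers, with 1 symbol per replicate number and the mean and SD beside each group. Each panel has its own scale and 1 probe per gene. In each panel the 3 MC-LR livers lie above the 3 controls, by the least for Mapk6.

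For the RNAs of the p38 kinases, which the products of Map2k3 and Map2k6 phosphorylate, no difference was detected. Mapk14, which encodes p38α, was at 11.94, 12.11 and 11.87 in the controls and 11.79, 11.84 and 12.34 in the MC-LR livers. The groups overlapped, and the difference was 0.01 (95% interval -0.41 to 0.44), with a sign that turned in 3 of the 18 alternatives. The other p38 genes, named after their values were seen, were Mapk11 (p38β) at -0.17, Mapk12 (p38γ) at 0.13 and Mapk13 (p38δ) at 0.02. The p38 group thus had 0 of 4 members at an unadjusted p under 0.05 (12.9% of all genes), with a median difference of 0.01.

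Of the ERK-type kinases 1 of 6 was at an unadjusted p under 0.05, as 12.9% of all genes were. Mapk6 encodes ERK3, an atypical MAP kinase that lacks the usual tyrosine in its activation loop. Its probe at mm9 chr9:75235224-75235283 gave 8.73, 8.45 and 8.94 in the controls and 9.33, 9.19 and 8.96 in the MC-LR livers. The lowest MC-LR liver was just above control 3. The difference was 0.46 (SE 0.17, 95% interval 0.05 to 0.87), with an unadjusted p of 0.034 and an adjusted p of 0.356 in limma (0.148 to 0.723 over the alternatives). With slide as a block it was 0.22, and its other passing probes gave 0.17 and -0.16.

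Mapk3, which encodes the classical kinase ERK1, was at 10.97, 10.90 and 11.21 in the controls and 10.88, 11.16 and 10.71 in the MC-LR livers. The groups overlapped, and the difference was -0.11 (95% interval -0.49 to 0.27). Named after their values were seen, Mapk4 (ERK4) was well above background on 1 control and 3 MC-LR arrays, at 0.93, 3.11 and 2.90 against 3.80, 3.44 and 3.17, a difference of 1.16 (95% interval -0.28 to 2.60, unadjusted p = 0.097). The difference of Mapk4 was 0.13 with normexp background correction, 1 of the 18 alternatives, so its size depends on how dim signals are treated. Mapk7 (ERK5) was at -0.20 and Mapk15 at -0.10.

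Both tested JNK genes lay close in the groups. Mapk9 (JNK2) was at 8.95, 8.93 and 8.97 in the controls and 8.90, 8.94 and 8.90 in the MC-LR livers, with SDs of 0.019 and 0.023. The difference of -0.04 had a 95% interval of -0.24 to 0.16. Mapk8 (JNK1) was at 8.79, 9.03 and 8.75 against 9.09, 9.05 and 8.84, a difference of 0.14 (-0.17 to 0.45). Both pairs of groups overlapped. Mapk10, the gene of the JNK isoform best known from neurons, was well above background on 1 control array and no MC-LR array and was not tested.

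Among the phosphatases, the ERK-directed cytoplasmic enzymes are encoded by Dusp6, Dusp7 and Dusp9. Dusp7 has 1 probe, at mm9 chr9:106277697-106277756, and gave 9.91, 9.84 and 10.004 in the controls and 10.39, 10.40 and 10.57 in the MC-LR livers. Every MC-LR liver lay above every control. The difference was 0.54 (SE 0.10, 95% interval 0.29 to 0.79, a 1.45-fold ratio), with an unadjusted p of 0.0019 and an adjusted p of 0.225 in limma (0.0866 to 0.664 over the alternatives). With slide as a block it was 0.45, and it ranged from 0.45 to 0.58 over the 18 alternatives.

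Dusp6, the ERK phosphatase best known as a feedback target of ERK itself, was at 12.12, 12.60 and 12.75 in the controls and 12.51, 12.33 and 12.70 in the MC-LR livers. The groups overlapped throughout. The difference was 0.02 (95% interval -0.46 to 0.50), and its sign turned in 6 of the 18 alternatives, down to -0.24 with slide as a block. Dusp9, named after its values were seen, was at 0.13. The ERK-directed group had 1 of 3 members at an unadjusted p under 0.05 and a median difference of 0.13. Among all genes 12.9% were at such a p, and a group of 3 is too small for a comparison.

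The inducible nuclear phosphatases had 0 of 3 members at an unadjusted p under 0.05. Dusp1, the early-response phosphatase of p38 and JNK, was at 9.70, 10.03 and 10.16 in the controls and 10.09, 8.84 and 9.81 in the MC-LR livers. MC-LR liver 2 was the lowest of all, and the groups overlapped. The difference was -0.38 (SE 0.34, 95% interval -1.21 to 0.45), and it ranged from -0.64 to -0.01 over the 18 alternatives. Dusp4, named after its values were seen, was at 0.20, and Dusp2, a phosphatase abundant in immune cells, is described with control 3.

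The JNK- and p38-directed phosphatases are encoded by Dusp8, Dusp10 and Dusp16, and 0 of 3 were at an unadjusted p under 0.05. Dusp8 was among the 4 brightest members through a probe that gave 15.35, 15.44 and 14.95 in the controls and 15.04, 15.01 and 15.01 in the MC-LR livers. Control 3 was the lowest array and lay near the MC-LR livers. The difference was -0.22 (95% interval -0.59 to 0.14), and it was 0.07 with slide as a block. The gene's other probes gave 8.69, 8.65 and 9.51 against 7.76, 8.64 and 9.10, and 7.98, 7.95 and 9.58 against 6.69, 8.15 and 8.84. On both of those probes control 3 was the highest array, so the probes of Dusp8 disagreed on where control 3 stood. The probes also differed widely in level, and which of them best reads Dusp8 was not tested. Dusp10 and Dusp16, named after their values were seen, were at -0.24 and -0.07.

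Of the atypical phosphatases, small enzymes without the MAP kinase-binding domain, 10 of 14 were tested and 0 were at an unadjusted p under 0.05. Their median difference was 0.01. Dusp12, the brightest of them by its probe, was at 12.96, 12.85 and 12.79 in the controls and 12.81, 12.76 and 12.36 in the MC-LR livers. The groups overlapped by a narrow margin, and the difference was -0.22 (95% interval -0.58 to 0.14). Dusp19, named after its values were seen, did not overlap between groups, at 8.49, 8.37 and 8.35 against 8.18, 8.32 and 7.98, with an unadjusted p of 0.0905. The untested members were Dusp13, Dusp21, Dusp26 and Dusp27, together with Map3k19 and Mapk10. Of these Dusp26 was well above background on 2 control arrays and no MC-LR array, at 3.61, 2.66 and 3.14 against 2.13, 1.41 and 1.92.

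Upstream, the 15 tested MAP3Ks had 0 members at an unadjusted p under 0.05 (12.9% of all genes) and a median difference of -0.04. Of them 11 lay below 0 and 4 above, where 48.6% of all genes lay above. Map3k5, which encodes the oxidative-stress kinase ASK1, was at 9.38, 9.44 and 8.79 in the controls and 9.34, 9.13 and 9.76 in the MC-LR livers. Control 3 was the lowest array. The difference was 0.21 (95% interval -0.38 to 0.79), 0.62 with slide as a block and -0.00 without control 3. Map3k7, which encodes TAK1, the kinase that links cytokine receptors to p38, JNK and NF-κB, was at 7.62, 7.70 and 7.71 against 7.84, 7.57 and 8.01, a difference of 0.13 (-0.20 to 0.46).

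The 5 MAP4Ks, kinases that act on MAP3Ks, ranged from -0.42 (Map4k4) to 0.09 (Map4k2), with 0 at an unadjusted p under 0.05. The 5 scaffolds and partner genes, which include the JNK-interacting proteins encoded by Mapk8ip1, Mapk8ip2 and Mapk8ip3, ranged from -0.34 to 0.25, also with 0. By current RefSeq symbols 4 further genes would belong, 3 of them tested: Map2k3os at 0.16, Map3k20 at -0.48 (unadjusted p = 0.0818) and Map3k21 at 0.16. Map2k3os is annotated on the strand opposite Map2k3.

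In some members control 3 lay apart from the other controls. It was the highest of the 6 arrays in 19 of the 63 members, MC-LR liver 3 in 18, and each of the others in 4 to 9. In 11 members control 3 lay over 0.5 from the mean of controls 1 and 2, 9 above it and 2 below. These counts were not taken over all genes, so they are not read as a trait of the members. Over all tested genes control 3 also lay apart from the other controls on the first principal component, with the MC-LR livers between them. The members given here were named after their values were seen. Dusp2 was at 9.31, 9.36 and 10.86 in the controls and 9.71, 9.45 and 8.75 in the MC-LR livers. Dusp14, an atypical phosphatase that acts in T cell signalling, was at 6.87, 6.86 and 8.16 against 6.87, 6.74 and 6.94. Map4k1, which encodes the blood-cell kinase HPK1, was at 8.54, 8.30 and 9.42 against 8.95, 9.04 and 8.41. In all 3 genes control 3 was the highest array. The other members with control 3 over 0.5 above that mean were Map2k6, Mapk4, Dusp10, Map3k14, Map3k8 and Mapk8ip3, and those with it below were Map3k5 and Mapk15.

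Control 3 was also the highest array in the means of several marker lists. The 10 tested macrophage markers, all well above background on all arrays, averaged 11.71, 11.68 and 12.55 in the controls and 11.27, 11.61 and 11.89 in the MC-LR livers. The 12 lymphocyte markers averaged 7.32, 7.39 and 8.08 against 7.60, 7.71 and 7.19. The 12 immediate early genes, targets of MAP kinase signalling such as Fos, averaged 9.44, 9.37 and 10.06 against 9.34, 9.41 and 9.25. Control 3 was the highest array in 9 of the 10 macrophage markers (not in the Kupffer cell marker Clec4f), 8 of the 12 lymphocyte markers and 8 of the 12 immediate early genes. It was also the highest by the mean of the stellate cell and fibroblast markers (8 of 10 genes), the cholangiocyte markers (3 of 7) and the neutrophil markers (4 of 6). It was not the highest by the mean of the blood cell markers (1 of 7), the endothelial markers or the hepatocyte markers. The 12 endothelial markers averaged 10.035, 9.972 and 9.895 in the controls and 9.729, 9.650 and 9.876 in the MC-LR livers. In the hepatocyte markers control 3 was the lowest array, at 15.789, with the others from 15.844 to 15.923. The log2 of the summed macrophage signal spanned 16.8 to 17.7 in the controls and 16.6 to 16.9 in the MC-LR livers, and that of the lymphocyte markers 12.1 to 13.1 and 11.9 to 12.4. Their part in the values of Dusp2, Dusp14 and Map4k1 was not tested.

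**Figure D3:**
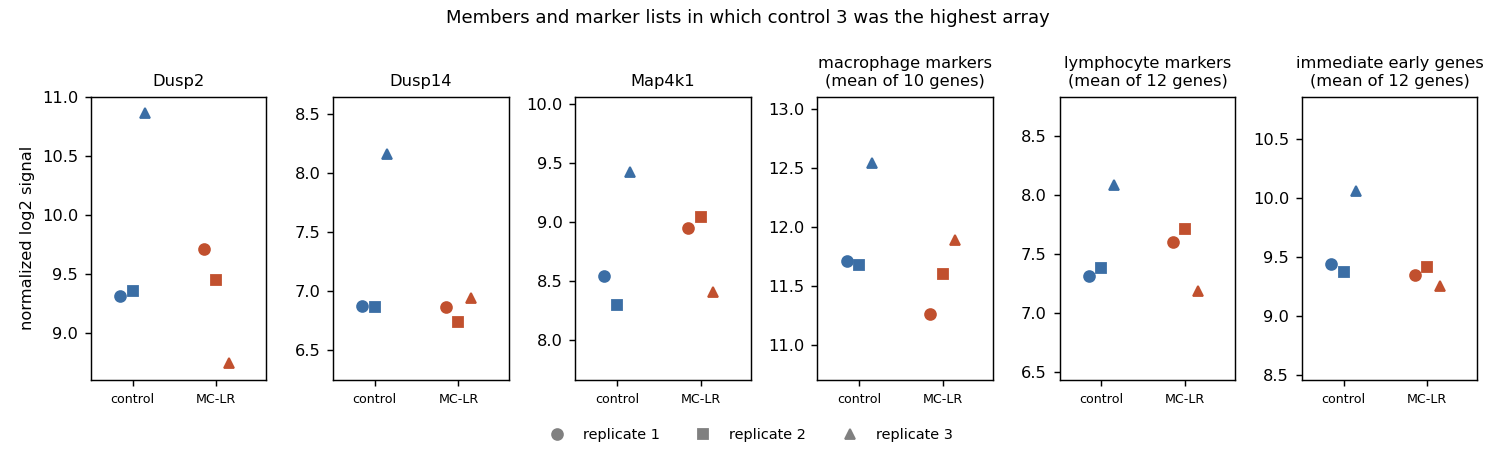
Normalized log2 signal (vertical axis, its own scale in each panel) of Dusp2, Dusp14 and Map4k1 and the mean log2 signal of macrophage markers, lymphocyte markers and immediate early genes, per liver. Symbols mark the replicate number. Control 3, the blue triangle, is the highest of the 6 livers in each panel.

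Since control 3 is the only control on slide 2, a fit with slide as a block compares control 3 with the MC-LR livers, and slide and that mouse cannot be told apart. With slide as a block, 10 of the 63 members (15.9%) were at an unadjusted p under 0.05 in limma, against 16.1% of all genes, and 0 passed the adjusted threshold. Of these 3 were higher in MC-LR livers (7.97% of all genes were) and 7 lower (8.12% of all genes were). The higher ones were Map2k6, Map2k3 and Dusp7. The lower ones were Dusp2 at -1.56, Dusp14 at -1.31, Map4k4 at -0.73, Map3k8 at -0.67, Map3k1 at -0.64, Dusp10 at -0.63 and Map3k14 at -0.63. Dusp14 had the smallest adjusted p of these in limma, 0.0978, and without the block its difference was -0.45 with an unadjusted p of 0.258. Control 3 was the highest of the 6 arrays in each of the 7 lower members. Without control 3 the differences were -0.03 (Dusp2), -0.02 (Dusp14), -0.26 (Map4k4), -0.09 (Map3k8), -0.16 (Map3k1), -0.04 (Dusp10) and 0.04 (Map3k14). With control 3 left out each slide held 1 group, and the part of control 3 in these values was not tested. The arrays of slide 2 alone hold the same comparison and give the same differences, and are no second line of evidence, with 8 members at an unadjusted p under 0.05 (3 higher and 5 lower) against 12.2% of all genes (5.97% higher and 6.23% lower).

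**Figure D4:**
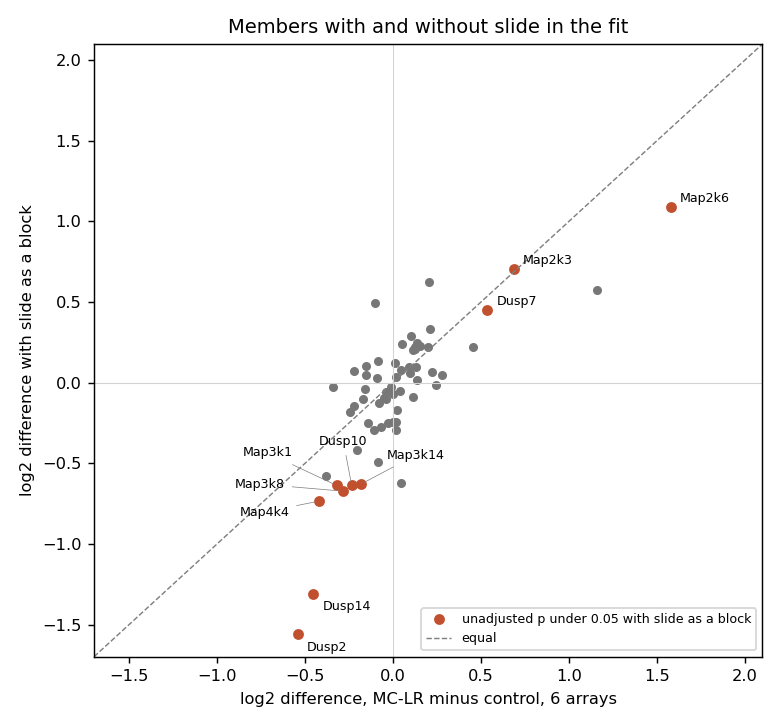
Difference between MC-LR and control livers (log2) for each of the 63 tested members, from 6 arrays without slide in the fit (horizontal axis) and with slide as a block (vertical axis). Orange points are the 10 members at an unadjusted p under 0.05 with the block, and the dashed line marks equal values. Map2k3 lies close to the line, and Dusp2 and Dusp14 lie far below it.

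The wider pathway was read from lists around the cascades, beside the shares of 7.51% higher and 5.37% lower among all genes, and 7.97% and 8.12% in the fit with slide as a block (the block fit). Of 20 Ras and Raf input genes 0 were higher and 2 lower at an unadjusted p under 0.05, with a median difference of -0.11 (1 higher and 2 lower in the block fit). One of the lower ones was Rasal1, a Ras GTPase-activating protein, at 7.59, 6.76 and 8.68 in the controls against 5.25, 6.52 and 4.97 in the MC-LR livers (adjusted p = 0.293 in limma). The groups did not overlap. Of 12 ERK feedback genes 2 were higher and 1 lower, with a median of 0.00, and in the block fit 1 was higher and 2 lower, with a median of -0.06. The higher ones without the block were Phlda1 and Spry4, the latter named after its values were seen. Spry4 was well above background on 1 control and 3 MC-LR arrays, so the filter on dim probes favoured its direction. Spry1, a Sprouty inhibitor of receptor signalling to ERK, had a difference of -0.47 (adjusted p = 0.231 in limma). Phlda1 was at 12.46, 12.43 and 12.03 against 14.22, 13.14 and 15.07, a difference of 1.84 (adjusted p = 0.270 in limma).

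Of 19 stress input genes, 0 were higher and 1 lower, with a median of -0.08, and the block fit had 0 higher and 3 lower. Tab2, the adaptor of TAK1, was at 11.84, 11.52 and 11.27 in the controls and 10.96, 10.96 and 10.83 in the MC-LR livers, a difference of -0.63 (adjusted p = 0.270 in limma). Gadd45g, an activator of the p38 and JNK pathways, had a difference of -1.25 (adjusted p = 0.415 in limma) with overlapping groups. Of 9 kinases activated by MAP kinases 0 were at an unadjusted p under 0.05 (2 lower with slide as a block), with Mapkapk3 at -0.30 and Mknk2 at 0.69. Of 12 other phosphatases of MAP kinases 1 was higher, Ppm1a, which acts on p38 and JNK, at 12.77, 12.88 and 12.66 against 13.01, 13.04 and 13.03 (adjusted p = 0.364 in limma), and Ssh2 was at 0.31. Of the 12 immediate early genes 1 was lower, with a median of -0.33, Fosb at -0.26 and Fos at -0.57. The block fit had 4 of them lower and a median of -0.67, and the median was -0.07 without control 3. None of the genes in these lists passed the adjusted threshold.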

How the data were processed

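Each of 6 livers was hybridised to 1 single-colour array. Spot intensity was extracted with Agilent Feature Extraction 10.7 according to the submitters' processing notes, and per the file headers the processed intensity is background-corrected. The deposited log2 values were quantile normalized by the authors, per the series' design text. Each deposited column correlated with its own array's log2 processed signal at r of 0.9982 to 1.0000, with a median of 5.94. Its scale is thus log2, uncentred, and it differed from the values used here by at most 0.003 for the members.

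Processed signals were floored at 1, logged, freed of outlier spots, averaged per probe and brought to common quantiles over the 41174 probes other than controls. A gene was read by its probe with the highest mean deposited value and tested if either group had that probe well above background on all 3 arrays. The groups were tested by limma 3.58.1 under R 4.3.3 (4 residual and 2.05 prior degrees of freedom, two-sided), with Benjamini-Hochberg adjustment over 18903 genes. The 95% intervals use the same fit. Probe coordinates are mm9, per the file headers.

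Members, lists and motifs were chosen with earlier results of these data known. Named members are those at an unadjusted p under 0.05 with groups apart (up to 12 per direction), the 4 brightest by probe, and 12 core genes; of each pathway list the 2 genes with the smallest p are given. Some genes under this rule are not reported here. Simulated data with 3 arrays per group covered 18903 genes, 20 runs and 200 changed genes. They recovered 56.5% of genes with a log2 change of 1 and 91.2% of those with 2, with 5.18% false calls. The values were independent draws with each gene's fitted spread and no slide effect, so these shares may not hold for the real arrays. Alternatives were the deposited values, other scalings, normexp, other filters, the mean of a gene's probes, slide, replicate number, eBayes with trend and robust, membership by current symbol, and each array left out.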

Additional observations from a re-analysis of the deposited data

How the results depend on the processing

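The count of members past the adjusted threshold was 0 in each alternative except without control 3, where it was 1 (Map2k6), so leaving out 1 array gave 0 to 1. Members at an unadjusted p under 0.05 numbered 4, and 10 with slide as a fixed block, 7 with slide as a random block, 8 with slide 2 alone and 3 to 8 with 1 array left out (8 without control 3). Over all genes the count of 3 became 1 with 75th percentile scaling, median scaling, normexp or the strict filter, 5 with no filter, 15 with slide as a fixed block, 0 with slide 2 alone, and 1 to 50 with 1 array left out (50 without control 3, 1 without MC-LR liver 1). The members' median difference was -0.039 with slide as a random block and -0.039 to 0.029 with 1 array left out. Map2k3, Map2k6, Dusp7 and Mapk6 kept their sign in all 18 alternatives. Among the 17 members named by the rule and reported here, signs turned for Dusp6, Dusp8, Map2k1, Mapk14 and Map3k5. Members outside that list also spanned 0 over the alternatives, among them Mapk15 (-0.405 to 0.496) and Map4k1 (-0.623 to 0.379). Dusp6 was at -0.0013 with normexp, -0.244 with slide as a block or slide 2 alone, and -0.093 with slide as a random block. Dusp8 was at 0.073 and Map2k1 at -0.051 with slide as a block or slide 2 alone. With 1 array left out, Dusp6 ranged from -0.168 to 0.148, Mapk14 from -0.161 to 0.112, Map2k1 from -0.056 to 0.143 and Map3k5 from -0.0024 (without control 3) to 0.346. The causes were not tested.

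The labels number the livers 1 to 3 in both groups, and same-numbered livers deviated together at r of 0.19, -0.32 and -0.20, so the numbers were not taken to pair them. With the replicate number as a block, 0 of all genes and 0 members passed the adjusted threshold in limma, and 4 members were at an unadjusted p under 0.05 (3 higher and 1 lower).

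Levels near background (Mapk4, Dusp26, Mapk10) are the least certain. Other passing probes of the members numbered 49, of which 35 had the sign of the probe used, and a difference for a gene with opposed probes depends on the probe.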
